A study of Mus musculus with 4 samples.

Results

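Neutrophils are short-lived phagocytes that mature in the bone marrow and carry their proteins in granules that are packed in a fixed order. Azurophil granules with the serine proteases are made first, at the promyelocyte stage, specific granules with lactoferrin follow, gelatinase granules come later, and receptors and cytosolic proteins such as the S100 proteins accumulate towards the mature cell. The data described here are the levels of 33 genes of this programme among the 37310 genes counted. They were taken by name, as genes of azurophil and specific granules, of early regulators, of cytosolic and late proteins, of surface receptors and of the phagocyte NADPH oxidase. None was chosen by a cut on the values, but earlier results of these data were known when the list was made.

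RNA-seq was run on bone marrow cells of wild type C57Bl/6 mice that were mature (3 months old) or elderly (24 months old), with 2 libraries per age. The study's methods describe male mice and direct sorting of Lin-LEPR+ cells, and the study states that such cells, freshly isolated, were sequenced. Lin-LEPR+ cells are those without the lineage antigens Ter119, CD31 and CD45 and with the leptin receptor. The labels name unsorted marrow as the source, and title each library as 1 mouse although they and the methods describe RNA of 3 or 4 mice per group, so the SD with n = 2 is the spread between libraries and may not be that between mice. CD45 is the pan-leukocyte antigen that neutrophils carry, and CD31 is found on endothelial cells and on leukocytes, neutrophils among them. The libraries held between 10472117 and 15650518 counts, and the replicates of each age differed by more than the sampling noise of counts (chi-square per degree of freedom 16.1 in mature and 34.2 in elderly libraries).

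Levels are given as CPM, which are counts scaled to a common library size of 1000000 with a TMM factor. Fold changes are elderly over mature on the log2 scale from edgeR's quasi-likelihood test, and a gene was called when its p, adjusted over the 22214 genes tested, was under 0.05. A value with its SE in brackets, or in brackets after a gene's name alone, is a log2 fold change unless CPM is named. In bulk RNA, fewer cells of a type and less RNA per cell cannot be told apart.

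The levels of neutrophil genes were higher in elderly than in mature libraries in most of the genes tested. Of the 33 genes, 31 had enough counts to be tested, and 15 of these were called higher, against a background of 1.94% of all genes tested. The called genes were Elane, Ctsg, Ms4a3, Cebpe, Ltf, Ngp, Pglyrp1, S100a8, Padi4, Retnlg, Stfa2l1, Trem1, Trem3, Clec4d and Cybb, with fold changes between 2.21-fold (Padi4) and 5.48-fold (Ctsg). None was called lower, against 0.423% of all genes, whereas 1 gene, Hp, was lower at an unadjusted p under 0.05, and DESeq2 and the exact test also called 0 lower. The median log2 fold change of the 31 genes was 1.38, and that of all genes tested was -0.01. Both elderly libraries were higher than both mature ones in 29 of the 31 genes, compared with 22.0% of all genes, and both lay below in 1 gene (Hp), compared with 18.9%. Chi3l1 and S100a9 passed the filter on low counts through the elderly libraries alone, and with the genes not detected in mature libraries set to their limits the median was 1.30.

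The calls changed when libraries were left out. Without mature replicate 2, 5 of the genes were called (Elane, Ctsg, Ms4a3, Cebpe and Trem3), and without mature replicate 1, 16 were. Without either elderly replicate, 0 genes of the whole table were called, although 14 of the neutrophil genes were then higher at an unadjusted p under 0.05 in either case, among 1463 (without elderly replicate 1) and 1627 (without elderly replicate 2) genes of the whole table past that threshold in either direction. The exact test with the dispersion that the study set called 1 of the genes, Ctsg, at an adjusted p under 0.05. At an unadjusted p under 0.05, it had 15 of the genes higher, among 1634 genes of the whole table in either direction.

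**Figure D1:**
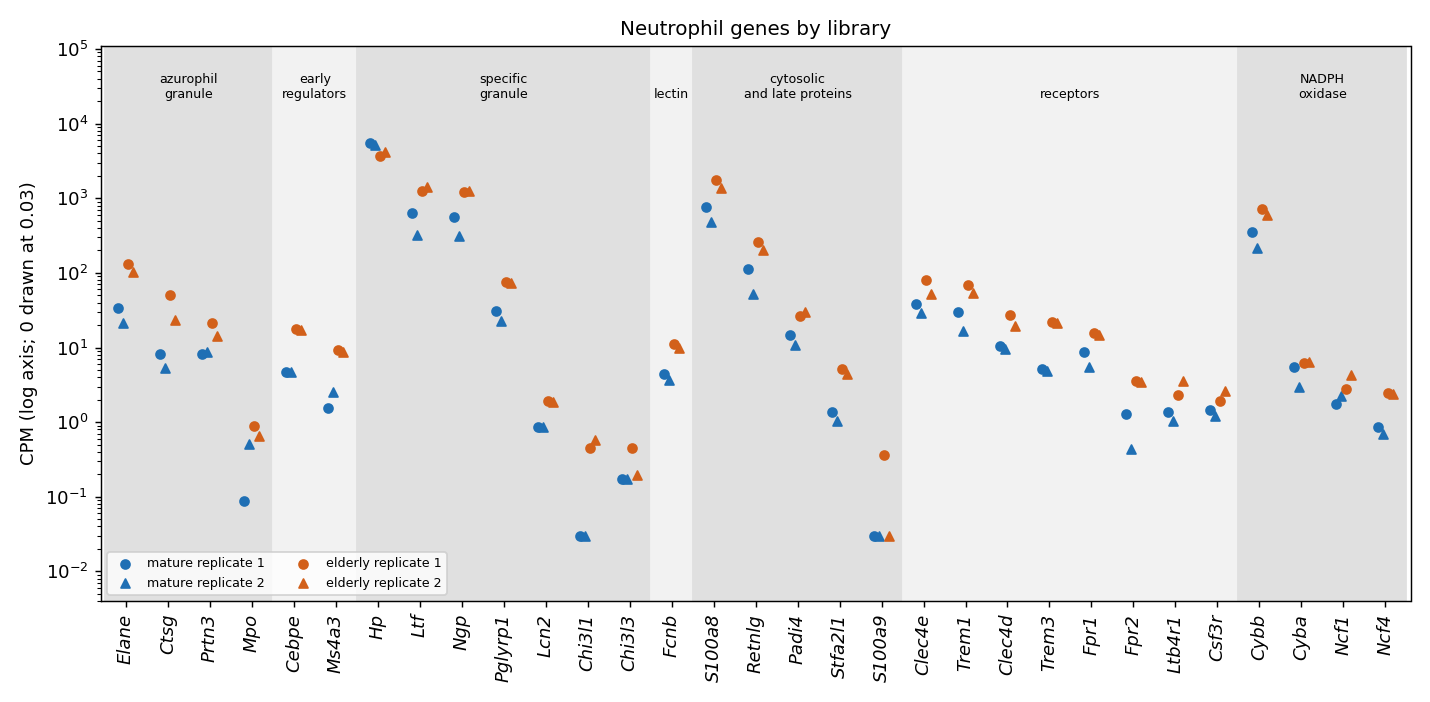
Level of each of the 31 tested neutrophil genes in each library, in CPM on a log axis, by role (grey bands). Circles are replicate 1 and triangles replicate 2 of mature (blue) and elderly (orange) mice. The elderly points lie above the mature points in 29 genes, whereas for Hp, the gene with the highest CPM, the mature points are on top.

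**Figure D2:**
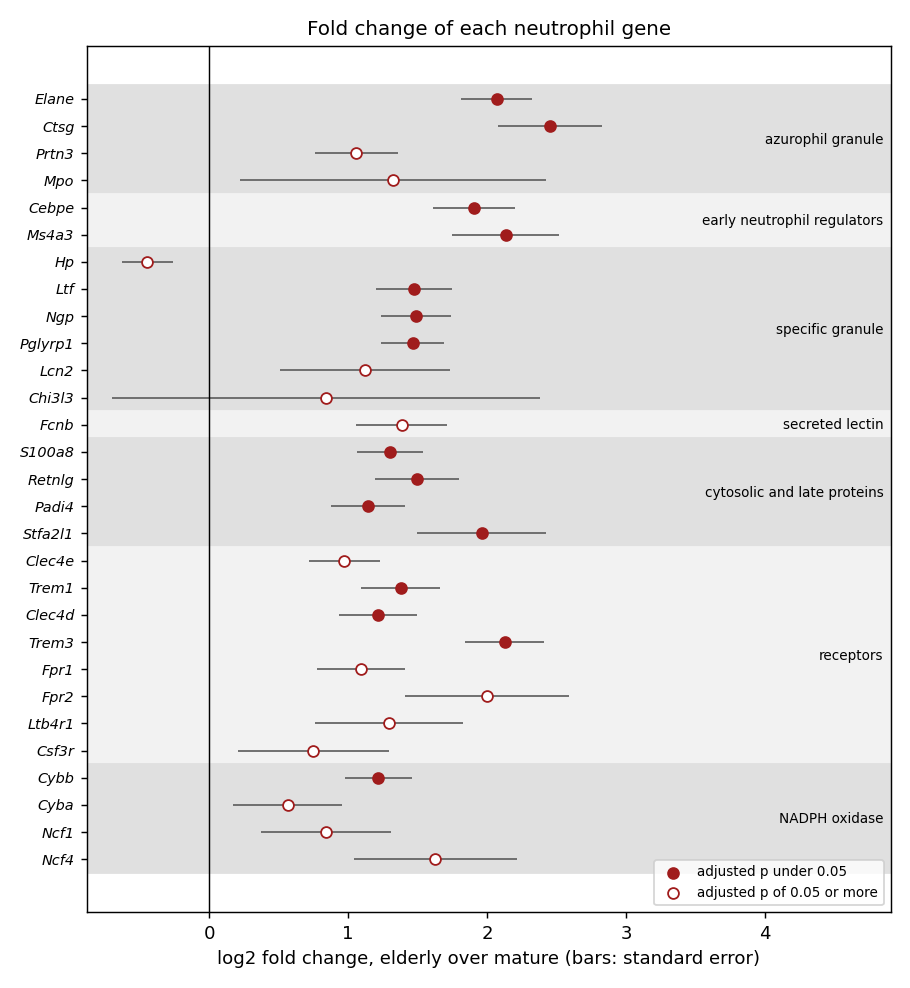
Log2 fold change, elderly over mature, of each tested gene with counts in both ages, with its standard error (bars), by role (grey bands). Filled points have an adjusted p under 0.05 by edgeR's quasi-likelihood test, and the filled points lie between 1.14 (Padi4) and 2.45 (Ctsg).

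The regions upstream of these genes are shown for 4 genes that the results turn on, 2 azurophil and 2 specific granule genes, with the matches to a pair of myeloid motifs. The C/EBP factors, among them the product of Cebpe, and PU.1 are the main transcription factors of the granulocyte lineage. The windows hold 250 bases before and 50 bases after the gene's start, from RefSeq on GRCm38.p6, written 5′ to 3′ on the gene's strand. Capitals mark matches, on either strand, to the C/EBP letters TTNCNNAA and to the PU.1 letters GAGGAA, which may overlap each other in a promoter.
Elane, chr10:79886062-79886361, plus strand: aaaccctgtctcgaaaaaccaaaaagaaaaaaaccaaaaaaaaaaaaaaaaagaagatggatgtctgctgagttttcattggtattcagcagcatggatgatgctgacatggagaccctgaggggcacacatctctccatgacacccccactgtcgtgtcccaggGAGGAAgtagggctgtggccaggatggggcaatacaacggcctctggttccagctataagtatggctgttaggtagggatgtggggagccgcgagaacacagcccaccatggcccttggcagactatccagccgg
Ctsg, chr14:56102525-56102824, minus strand: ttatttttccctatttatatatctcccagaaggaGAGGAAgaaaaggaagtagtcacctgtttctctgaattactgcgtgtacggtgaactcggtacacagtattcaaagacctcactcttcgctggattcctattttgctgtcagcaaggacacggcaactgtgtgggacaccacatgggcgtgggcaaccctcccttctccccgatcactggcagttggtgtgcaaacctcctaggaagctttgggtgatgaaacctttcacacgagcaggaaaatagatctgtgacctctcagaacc
Ltf, chr9:111019042-111019341, plus strand: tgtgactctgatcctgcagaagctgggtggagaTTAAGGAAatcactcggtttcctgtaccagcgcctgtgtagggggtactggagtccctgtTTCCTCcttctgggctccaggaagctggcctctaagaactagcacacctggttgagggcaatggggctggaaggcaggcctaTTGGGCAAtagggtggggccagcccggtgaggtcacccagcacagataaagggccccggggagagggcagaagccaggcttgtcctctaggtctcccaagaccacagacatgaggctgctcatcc
Ngp, chr9:110419558-110419857, plus strand: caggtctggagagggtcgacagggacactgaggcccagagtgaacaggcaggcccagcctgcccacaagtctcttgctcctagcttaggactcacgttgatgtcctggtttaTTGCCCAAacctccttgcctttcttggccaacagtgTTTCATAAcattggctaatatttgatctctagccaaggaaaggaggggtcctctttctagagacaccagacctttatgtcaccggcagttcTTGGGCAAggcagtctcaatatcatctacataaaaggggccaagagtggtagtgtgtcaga

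RefSeq held a window for 29 of the 33 genes. The C/EBP letters were found in 17 of the 29 (58.6%) and in 40.7% of all 27025 promoters of that length. The PU.1 letters were also found in 17 of the 29 (58.6%), and in 28.3% of all promoters. Both motifs stood together in 9 windows (31.0%, against 11.8% of all promoters). Among the 13 called genes with a window, 8 held the C/EBP letters and 10 the PU.1 letters. All 4 azurophil promoters held the PU.1 letters and 0 the C/EBP letters. Of the 7 specific granule promoters, 5 held C/EBP letters and 3 held PU.1 letters, and of the 7 receptor promoters 5 and 6 did. The letters describe these windows and are not evidence of binding.

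The azurophil granule genes encode the serine proteases neutrophil elastase (Elane), proteinase 3 (Prtn3) and cathepsin G (Ctsg), and myeloperoxidase (Mpo), which makes hypochlorous acid. Elane (GENCODE M1 on mm9, chr10:79349057-79350961) was counted at 34.3 and 21.3 CPM in mature and at 130.4 and 103.0 CPM in elderly libraries. It rose 4.19-fold (log2 fold change 2.07 ± 0.26 SE, edgeR adjusted p = 0.0021), and the libraries of the ages were far apart. Ctsg (chr14:56718718-56721411) was counted at 8.13 and 5.34 CPM in mature and 50.4 and 23.7 CPM in elderly libraries. It showed the largest fold change of the called genes (2.45 ± 0.37 SE, edgeR adjusted p = 0.0052), and its elderly replicates differed from each other 2.12-fold. Prtn3, which lies 3137 bases upstream of Elane, was at 8.31 and 8.62 CPM in mature and at 21.0 and 14.4 CPM in elderly libraries. Its log2 fold change of 1.06 ± 0.30 (SE) did not pass the test (edgeR adjusted p = 0.11). Prtn3 also has transcripts that are not protein-coding, and with the protein-coding ones alone the log2 fold change was 1.26 with an adjusted p of 0.04 (edgeR). Mpo had 1, 6, 10 and 10 counts in mature replicates 1 and 2 and elderly replicates 1 and 2. Only 25.9% of its exonic bases could be counted, and its change (1.32 ± 1.10 SE) was within its error.

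Of the early regulators, Cebpe, a transcription factor needed for specific granules, had nearly equal levels within each age, at 4.67 and 4.74 CPM in mature and 17.9 and 17.4 CPM in elderly libraries. The rise was 3.75-fold (log2 fold change 1.91 ± 0.29 SE, edgeR adjusted p = 0.0056). Ms4a3, a membrane protein of granulocyte-monocyte progenitors, had 18 and 29 counts in mature and 103 and 132 counts in elderly libraries, and rose 4.39-fold (2.13 ± 0.39 SE, edgeR adjusted p = 0.014). Gfi1, a transcriptional repressor of the granulocyte lineage, had 0 counts in all 4 libraries. Only 59 of its 3249 exonic bases could be counted, so this 0 says little about its level.

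The specific granule genes include lactoferrin (Ltf), which binds iron, neutrophilic granule protein (Ngp), the cathelicidin Camp, lipocalin 2 (Lcn2), which binds siderophores, the chitinase-like Chi3l1 and Chi3l3, the peptidoglycan-binding Pglyrp1 and haptoglobin (Hp), which binds free hemoglobin. Ltf (chr9:110921796-110945270) was counted at 641 and 325 CPM in mature libraries and at 1250.0 and 1435 CPM in elderly libraries. It rose 2.78-fold (log2 fold change 1.47 ± 0.27 SE, edgeR adjusted p = 0.016), although its mature replicates differed from each other 1.97-fold. Ngp (chr9:110322254-110325514), on the same chromosome, was counted at 564 and 314 CPM in mature and 1204 and 1264 CPM in elderly libraries, a rise of 2.81-fold (1.49 ± 0.25 SE, edgeR adjusted p = 0.01). The ratio of Ltf to Ngp stayed between 1.04 and 1.14 in all 4 libraries. Pglyrp1 was at 30.9 and 23.0 CPM in mature and 76.4 and 72.3 CPM in elderly libraries and rose 2.76-fold (edgeR adjusted p = 0.0056). These 3 genes thus had log2 fold changes between 1.46 and 1.49.

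Hp (chr8:112099030-112103072) was the exception. It was counted at 5532 and 5193 CPM in mature and at 3710 and 4157 CPM in elderly libraries, so both elderly libraries were lower. The log2 fold change of -0.45 ± 0.18 (SE) was not past the threshold (edgeR adjusted p = 0.36). Haptoglobin is also an acute-phase protein of plasma that cells other than neutrophils make. In the mature libraries Hp took 0.536% and 0.514% of all counts, more than the other 32 genes together (0.258% and 0.153%). In elderly libraries it took 0.393% and 0.409% and the other genes 0.610% and 0.525%. All exonic bases of Hp could be counted, whereas 19 of the genes lost some. Among those, S100a9 kept 13 of 522 bases and Camp 27 of 601, so these shares depend on countable length. The ratio of Hp to Lepr, the leptin receptor gene, was 0.862 and 0.917 in mature and 0.900 and 0.728 in elderly libraries, and these values overlap. Without Hp, the summed specific granule level was 1237 and 663 CPM in mature and 2533 and 2774 CPM in elderly libraries. With Hp, the sum was 6769 and 5856 against 6243 and 6931 CPM, which overlap.

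The other specific granule genes were limited by the counting. Camp had 1 count in all, with 27 of 601 exonic bases countable, and was not tested. Lcn2 had 10 and 10 counts in mature and 21 and 29 in elderly libraries, but 38 bases of its protein-coding transcript could be counted and 4.29% of its counts came from that transcript. Chi3l1 had 0 and 0 against 5 and 9 counts, at least 2.0-fold higher in elderly libraries when 3 counts per library are taken as the limit of detection. Chi3l3 had 2 and 2 against 5 and 3 counts and shares sequence with its near copy Chi3l4, so its few counts are uncertain. None of these passed the test.

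Fcnb, ficolin B, a secreted lectin of myeloid cells, was at 4.41 and 3.62 CPM in mature and 11.3 and 9.76 CPM in elderly libraries. Its log2 fold change of 1.38 ± 0.33 (SE) was just outside the threshold (edgeR adjusted p = 0.051), and DESeq2 called it (adjusted p = 0.035).

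Of the 5 cytosolic and late genes, 4 were called higher, and all 5 had a positive log2 fold change. S100a8, which with S100a9 forms calprotectin, the most abundant cytosolic protein of neutrophils, was counted at 769 and 487 CPM in mature and 1733 and 1360 CPM in elderly libraries (chr3:90472993-90473956; log2 fold change 1.30 ± 0.24 SE, edgeR adjusted p = 0.015). Its partner S100a9 had 0, 0, 4 and 0 counts. S100a9 had 13 countable bases of 522, whereas S100a8 was countable throughout, so the pair cannot be compared. Retnlg, a resistin-like protein of late neutrophils, was at 112 and 51.8 CPM in mature and 259 and 204 CPM in elderly libraries (1.5 ± 0.30 SE, edgeR adjusted p = 0.024). Its mature replicates differed 2.17-fold, the most among the 20 genes with at least 20 counts in every library. Stfa2l1, a stefin-like protease inhibitor of a family of near-identical copies, had 16 and 12 against 57 and 67 counts (1.96 ± 0.46 SE, edgeR adjusted p = 0.049). Padi4, the enzyme that citrullinates histones when neutrophils release their chromatin, was at 14.9 and 10.7 CPM in mature and 26.3 and 30.1 CPM in elderly libraries (1.14 ± 0.27 SE, edgeR adjusted p = 0.049). Stfa2l1 and Padi4 were the called genes nearest to the threshold, and DESeq2 did not call Stfa2l1.

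**Figure D3:**
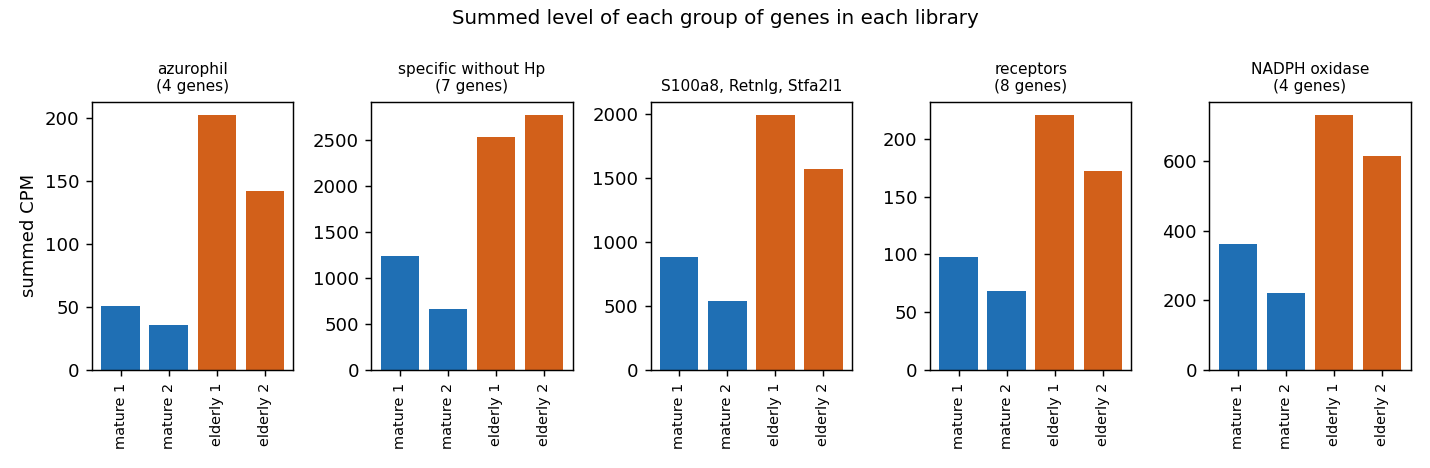
Summed CPM in each library of azurophil genes, specific granule genes without Hp, late genes (S100a8, Retnlg and Stfa2l1 only), receptors and NADPH oxidase genes. Bars start from 0, with mature in blue and elderly in orange. Each elderly bar is higher than each mature bar in all 5 panels, and mature replicate 2 has the lowest bar in each. With Hp, the specific granule sums of the ages overlap.

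Of the 8 receptors, 3 were called. Trem1 and Trem3 are neighbouring genes of receptors that amplify inflammatory signals, 852 bases apart on chromosome 17. Trem1 was at 30.4 and 16.9 CPM in mature and 68.8 and 54.1 CPM in elderly libraries (1.38 ± 0.28 SE, edgeR adjusted p = 0.026). Trem3 was at 5.10 and 4.91 CPM in mature and 22.3 and 21.6 CPM in elderly libraries, with little spread within either age (2.13 ± 0.29 SE, edgeR adjusted p = 0.0027). Clec4d and Clec4e are C-type lectin receptors of the mycobacterial glycolipid cord factor and also neighbours, 6520 bases apart on chromosome 6. Clec4d, at 10.6 and 9.48 against 27.3 and 19.3 CPM, was called (1.22 ± 0.28 SE, edgeR adjusted p = 0.047). Clec4e, at 38.4 and 28.8 against 79.1 and 53.0 CPM, was not (0.97 ± 0.25 SE, edgeR adjusted p = 0.077), although DESeq2 called it (adjusted p = 0.015).

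The formyl peptide receptors Fpr1 and Fpr2, which detect bacterial peptides, lie 3883 bases apart on chromosome 17. Fpr1 was at 8.74 and 5.52 CPM in mature and 15.7 and 14.7 CPM in elderly libraries (1.09 ± 0.32 SE, edgeR adjusted p = 0.12). Fpr2 had 15 and 5 counts in mature and 39 and 53 counts in elderly libraries (2.00 ± 0.59 SE, edgeR adjusted p = 0.13). Both elderly values were higher than both mature values in each of these receptors, and both were called when mature replicate 1 was left out. Csf3r, the receptor of G-CSF, the cytokine that drives neutrophil production, had 17 and 14 against 21 and 40 counts, and Ltb4r1, a receptor of leukotriene B4, had 16 and 12 against 26 and 55 counts. Neither passed the test, with 18.0% and 15.3% of their exonic bases countable. Of the Csf3r counts, 32.6% came from protein-coding transcripts.

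The NADPH oxidase makes superoxide in phagocytes. Its membrane subunit gp91phox (Cybb, chrX:9012378-9064897) was counted at 354 and 215 CPM in mature and 723 and 602 CPM in elderly libraries (1.22 ± 0.24 SE, edgeR adjusted p = 0.021). The subunit p22phox (Cyba) was at 5.54 and 2.93 against 6.22 and 6.31 CPM from 123 countable bases, and its log2 fold change was 0.56 ± 0.39 (SE). The cytosolic subunits Ncf1 and Ncf4 had 20 and 26 against 31 and 66 counts, and 10 and 8 against 27 and 37 counts. Ncf1 had no countable base in a protein-coding transcript, so its counts describe other transcripts of the gene. None of these 3 was called.

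The genes differed in how much of their length could be counted, since transcripts without a base of their own had 0 counts throughout and reads on shared bases thus did not enter the values. Of the 33 genes, 14 kept all their exonic bases, and 11 of these were called, the others being Hp, Clec4e and Fpr1. Of the 19 genes with some bases lost, 17 were tested and 4 called (Ms4a3, Padi4, Trem1 and Cybb). The median log2 fold change was 1.48 in the former and 1.29 in the latter.

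**Figure D4:**
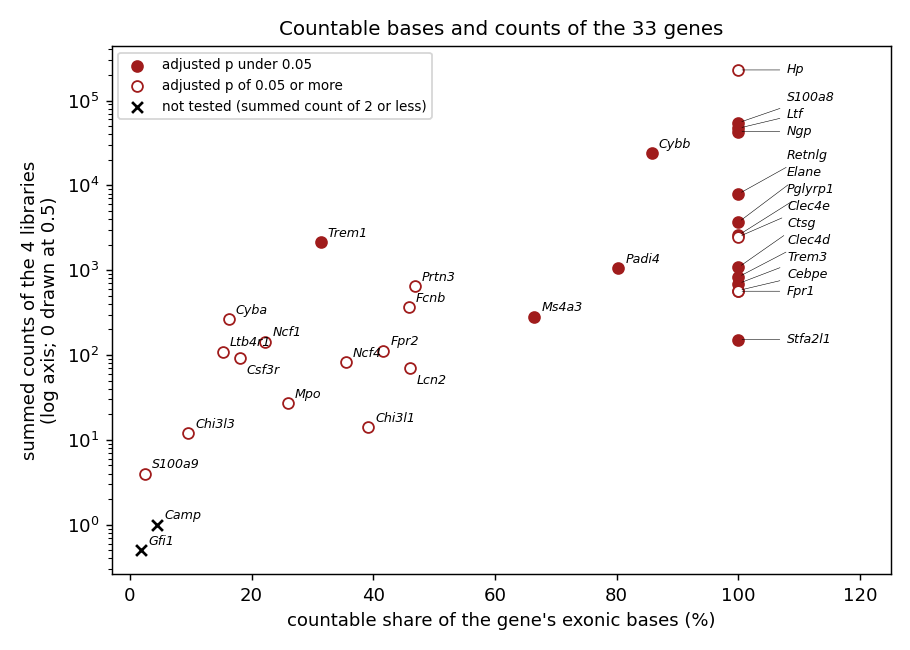
Share of each gene's exonic bases that could be counted (x axis, %) against its summed counts over the 4 libraries (y axis, log). Filled points were called, open points were not, and crosses were not tested. Of the 14 genes at 100%, 11 were called, and the genes at the lower left (Gfi1, Camp, S100a9) have almost no countable bases.

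Levels can be compared between the 14 fully countable genes per kilobase. Countable here means not shared with another annotated transcript. Stfa2l1 is of a family of near-identical copies, so its level is uncertain. In mature libraries the order by mean CPM per kb was Hp (3993), S100a8 (1602), Ngp (361), Ltf (176), Retnlg (135), Pglyrp1 (39.6), Elane (30.2), Clec4e (13.3), Clec4d (7.5), Ctsg (6.73), Fpr1 (5.38), Trem3 (5.04), Cebpe (3.80) and Stfa2l1 (2.92). In elderly libraries the order was S100a8 (3945), Hp (2929), Ngp (1014), Ltf (489.6), Retnlg (381), Elane (127), Pglyrp1 (109), Ctsg (37), Clec4e (26.2), Trem3 (22.1), Clec4d (17.5), Cebpe (14.3), and Fpr1 and Stfa2l1 (11.5 each). The libraries of neighbours in this order overlapped for Elane and Pglyrp1, Ctsg and Clec4e, Clec4e and Trem3, Clec4d and Cebpe, and Fpr1 and Stfa2l1, and the other neighbours did not overlap. In the mature order the libraries overlapped for Ltf and Retnlg, Pglyrp1 and Elane, Clec4d and Ctsg, Ctsg and Fpr1, and Fpr1 and Trem3. S100a8 and Hp, which changed places, did not overlap in either age.

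The groups of the programme were set side by side by maturation stage. The median log2 fold change was 2.02 for the 2 early regulators tested, 1.70 for the azurophil genes, 1.46 for the specific granule genes, 1.5 for the cytosolic and late genes, 1.25 for the receptors and 1.03 for the oxidase. In the lists of other neutrophil genes it was 0.99 for azurophil, 1.44 for specific granule, 1.57 for gelatinase granule and 1.74 for late genes. The lists thus did not share 1 order from early to late. The other regulators, receptors and oxidase genes, which are not granule stages, had medians of 0.00, 1.04 and 0.61. With genes not detected in mature libraries set to their limits, the specific granule median was 1.12 and the cytosolic and late median was 1.30. The gelatinase median was then 1.40 and that of the other receptors 0.91. The summed azurophil level was 4.11% and 5.39% of the specific granule level without Hp in mature libraries, and 8.0% and 5.11% in elderly libraries. These shares overlap, so a shift between the stages was not seen in these sums beyond the spread of the libraries. The sums rest mostly on Elane, Ltf and Ngp, and few bases of Mpo (25.9%) and Camp (4.49%) could be counted. Elane alone stood at 5.36% and 6.55% of Ltf in mature and 10.4% and 7.18% in elderly libraries, which do not overlap, and with 2 libraries per age a permutation test cannot go below p = 0.333.

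Most of the genes also varied together between the mature replicates. Of 20 genes with at least 20 counts in every library, 17 were higher in mature replicate 1 than in mature replicate 2, with a median ratio of 1.46. Of all genes with as many counts, 5583 of 11145 were, with a median ratio of 1.00. The ratio was 2.17 for Retnlg and 1.97 for Ltf, but 0.99 for Cebpe, 1.04 for Trem3 and 0.96 for Prtn3. In elderly libraries 14 of the 20 were higher in replicate 1, with a median ratio of 1.11. Over all genes with as many counts, 5682 of 11145 were, with a median of 1.01. The elderly ratios differed between the genes, at 2.12 for Ctsg but 0.87 for Ltf and 0.65 for Ncf1.

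Other genes of neutrophils were read from lists of the same roles. Of 67 genes tested in these lists, 22 were called higher and 1 lower, and their median log2 fold change was 1.18. Over all genes tested, 1.94% were called higher and 0.423% lower. Of the gelatinase granule, the stage after the specific granules, 4 of 6 genes were called higher, and all 6 had a positive log2 fold change. Mmp9, gelatinase B, was counted at 50.1 ± 10.3 CPM in mature and 160.1 ± 8.03 CPM in elderly libraries (SD, n = 2 each), with a log2 fold change of 1.67 ± 0.21 (SE, edgeR adjusted p = 0.0021). The membrane-bound metalloproteinase Mmp25 (1.66), the sheddase Adam8 (1.48) and the integrin chain Itgb2 (1.31) also rose on the log2 scale. Slc11a1, a phagosomal metal transporter, had 11 and 13 against 21 and 29 counts, and Itgam, the partner of Itgb2 in Mac-1, had 2 and 1 against 5 and 10 counts, and neither passed. Of the further specific granule genes, 5 of 7 were called higher and all 7 had a positive log2 fold change. Among those called were the neutrophil surface protein Cd177 (log2 fold change 1.83), Lrg1 (1.44), the collagenase Mmp8 (1.30) and Abca13 (1.23).

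Further azurophil genes moved in both directions. Lyz2, lysozyme, which monocytes and macrophages also express, was counted at 406 ± 133 CPM in mature and 804 ± 53.0 CPM in elderly libraries (SD, n = 2 each), with a log2 fold change of 0.99 ± 0.23 (SE, edgeR adjusted p = 0.046). Ctsc, cathepsin C, the peptidase that activates elastase, cathepsin G and proteinase 3, fell from 39.0 ± 6.09 to 19.1 ± 1.58 CPM (SD, n = 2 each; log2 fold change -1.03 ± 0.24 SE, edgeR adjusted p = 0.048). It was the only gene of the lists that was called lower, and it was not called with each of 3 of the alternatives to the fit that kept all libraries and the threshold (no TMM factors, single transcripts and protein-coding transcripts alone), nor by the exact test. Of late genes, 4 of 10 were called higher, Ifitm6 (1.85), Wfdc21 (2.02), Il1b, the cytokine interleukin-1 beta (1.22), and Asprv1 (1.64). All 10 had a positive log2 fold change. Of 20 further receptors, 5 were called higher and all 20 had a positive log2 fold change. Among those called were the Fc receptor Fcgr4 (1.96), Siglece (1.65), Pilra (2.17) and Ptafr, the receptor of platelet-activating factor (1.49). The oxidase partner Rac2 (1.62) was called higher, as was 1 of 8 regulators, Irf8 (1.07), a factor of monocyte and dendritic lineages. The regulators had 4 positive and 4 negative log2 fold changes. Of 7 cytokines and chemokines that act on neutrophils, edgeR and DESeq2 called 0, with 3 higher and 1 lower at an unadjusted p under 0.05, and the exact test called 1 higher.

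Markers of other cells moved in the same libraries, in which 1.94% of all genes tested were called higher. The leukocyte list had 3 of 7 genes called higher (median log2 fold change 1.47) and its summed level was 49.7 to 83.8 CPM in mature and 163 to 210 CPM in elderly libraries. Ptprc, the gene of CD45 itself, had 4, 1, 12 and 8 counts, with 2.61% of its exonic bases countable. Of monocyte and macrophage markers 5 of 15 were called higher, the complement genes C1qa (3.41), C1qb (3.39) and C1qc (3.15), the chemokine receptor Cx3cr1 (2.17) and the mannose receptor Mrc1 (1.91), and 12 of the 15 had a positive log2 fold change. Csf1r, their defining receptor, was at 1.77 CPM in both ages on average with 12.2% of its exonic bases countable, and Fcgr1 was at 0 in all libraries with 0.803% countable. Of erythroid markers 5 of 11 were called higher (sum 156 to 352 against 1152 to 1312 CPM), of markers of dividing cells 7 of 16 (236 to 489 against 884 to 1262 CPM) and of plasma cell markers 3 of 7 (154 to 220 against 962 to 971 CPM). The plasma cell markers did not rise as a set, with 4 positive and 3 negative log2 fold changes. Most of their elderly sum was the immunoglobulin gene Ighm, at 54.8 CPM in mature and 806 CPM in elderly libraries on average. Mature replicate 2 was also the lowest library for the leukocyte, erythroid and dividing-cell sums. The megakaryocyte sum was highest in that library, at 375 CPM against 60.0 CPM in mature replicate 1. The part of these cells in the neutrophil gene levels was not tested.

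The LEPR+ stromal markers did not rise. All 13 tested had a negative log2 fold change, with a median of -0.37. None was called by edgeR, DESeq2 or the exact test, and 4 were lower at an unadjusted p under 0.05. Lepr was at 6042 ± 533 CPM in mature and 4914 ± 1121 CPM in elderly libraries (SD, n = 2 each), and Cxcl12, a chemokine that retains neutrophils in the marrow, at 12718 ± 1407 and 8211 ± 1419 CPM (SD, n = 2 each). Eosinophil markers, of another granulocyte, had 0 of 6 genes called by edgeR, DESeq2 or the exact test, 0 at an unadjusted p under 0.05, and a median of -0.29, with a summed level of 343 and 26.8 CPM in mature and 146 and 147 CPM in elderly libraries.

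**Figure D5:**
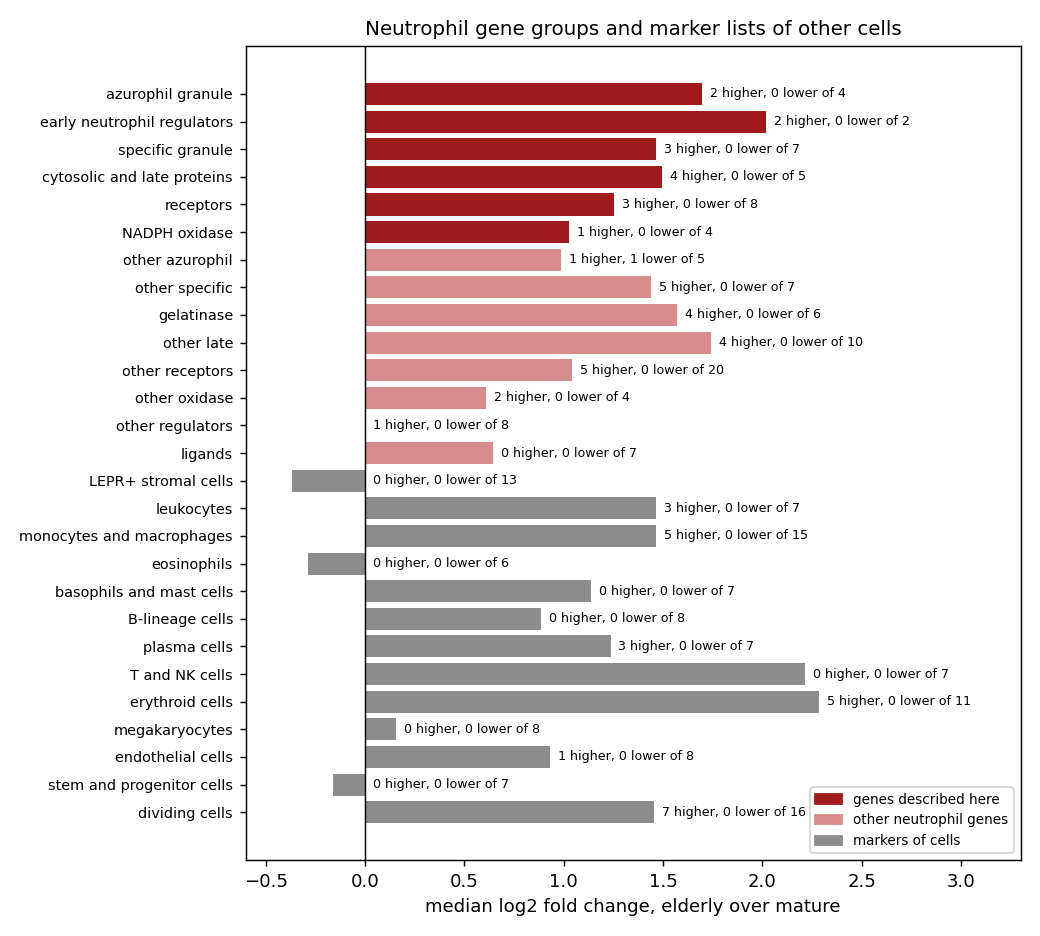
Median log2 fold change, elderly over mature, of the groups of neutrophil genes described here (dark red), of other neutrophil genes (light red) and of marker lists of other cells (grey). The text beside each bar gives the genes called higher and lower of those tested. The dark red groups lie between 1.03 and 2.02 and the light red ones between 0.00 (regulators) and 1.74 (late genes). Several marker lists fall in the same range, such as leukocytes (1.47) and dividing cells (1.46), and the LEPR+ stromal markers lie at -0.37. Monocytes and macrophages are drawn at 1.47, but their median is 0.77 with genes not detected in mature libraries set to their limits.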

How the data were processed

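RNA-seq libraries of mature and elderly mice (2 per age, grouped by their titles) were analysed. The authors used cutadapt for trimming, HISAT2 for mapping on mm9 and featureCounts for counting, and deposited raw counts per Ensembl transcript without normalization. The strand setting and the treatment of shared bases are not given in the sources used here. All 25621 transcripts without a base of their own in the annotation had 0 counts in every library, so a gene's countable bases are those covered by 1 transcript alone.

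Counts were summed per gene with GENCODE M1 (388 of 95883 transcripts unmatched, at most 0.0888% of counts). Genes with a summed count over 2 were kept (22214), normalized by TMM (factors 0.97 to 1.06) and tested with edgeR 4.0.16 (quasi-likelihood, 2-sided, biological coefficient of variation 0.265, prior count 0.125) in R 4.3.3, with Benjamini-Hochberg adjustment over all genes tested and no covariate. DESeq2 1.42.0 and edgeR's exact test with a dispersion of 0.2 were alternatives, beside other filters, scalings, features and thresholds and each library left out. The scripts were tested on simulated data. A gene with 3 counts or fewer in both libraries of an age was taken as not detected there, a limit that covers counting error only. The depth of 10472117 to 15650518 counts per library puts 3 counts at 0.195 to 0.270 CPM. Promoters are those in RefSeq's GRCm38.p6 table.

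The genes described, the lists and the roles were chosen with earlier results of these data known. All 33 genes are accounted for, as are all of the gelatinase list. Of each other neutrophil list up to 4 called genes with the smallest p are named, and of the marker lists Lepr, Cxcl12, Ptprc, Csf1r and the most abundant gene. Some genes that meet these rules are not reported here. The other marker genes named (Fcgr1 and the called monocyte and macrophage genes) were chosen after their values were seen. Of the lists, 1 gene symbol was not matched, and Ebf1, which has more than 1 gene identifier, was not used. The lists whose calls are not described in the text (basophils and mast cells, B-lineage cells, T and NK cells, megakaryocytes, endothelial cells, stem and progenitor cells) had 0, 0, 0, 0, 1 and 0 genes called higher by edgeR and 1, 0, 1, 0, 2 and 0 by DESeq2. They had 5, 3, 3, 0, 3 and 1 genes higher at an unadjusted p under 0.05, and the exact test called 0, 1, 2, 0, 0 and 0.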

Additional observations from a re-analysis of the deposited data

How the results depend on the processing

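No called gene changed sign under the alternatives run, and the number of the 33 genes called higher was 16 to 20 with DESeq2, other filters, other scalings, the robust fit, the replicate block and other choices of features. It was 1 by the exact test, 6 at an adjusted p under 0.01 and 0 to 16 with 1 library left out, where the lone library is assumed to vary like the other age. Over all genes, calls higher and lower were 430 and 94, against 179 and 29 by the exact test, 866 and 218 without a filter, 691 and 188 with the robust fit, 140 and 26 at an adjusted p under 0.01, 153 lower with DESeq2, and 0 to 580 and 0 to 94 with 1 library left out. Of the other neutrophil genes, alternatives chosen after seeing the data called 2 higher and 0 lower by the exact test, 4 and 0 at an adjusted p under 0.01, 0 to 24 and 0 with 1 library left out, and 0 lower without TMM factors, with single transcripts and with protein-coding transcripts alone. The cause was not tested.

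The median log2 fold change of the 31 genes was 1.30 with a prior count of 2 and 1.10 to 1.67 with 1 library left out. The same range was 1.10 to 1.69 for specific granule genes, 1.02 to 2.16 for cytosolic and late genes, 1.04 to 1.49 for receptors and 0.95 to 1.36 for the oxidase, whose median was 1.28 with single transcripts. Lcn2 alone turned, to -3.80, with the 3 counts of its protein-coding transcript. With the replicate block, 20 of the 33 genes, 34 other neutrophil genes and 962 higher and 314 lower genes in all were called. The replicate numbers do not pair the samples (correlation of deviations 0.022), so the block is no stronger evidence. Depth limits the genes with few countable bases, which cannot be read as absent.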
